A study of Mus musculus with 6 samples.

Results

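The complement and acute-phase genes were followed through the dedifferentiation of mouse fat cells. The list was chosen by name, with earlier results of these data known, and held 37 genes. Of these, 34 had at least 1 probe set annotated with their symbol alone, out of 18193 genes that could be named on the array. These 34 genes had 58 of the 45037 probe sets tested. C3, C4b and C7 had no such probe set in the annotation used and were not analysed here. RNA was measured on 6 Affymetrix mouse expression arrays (chips). Of these, 3 carried RNA of mature adipocytes, called AC, and 3 that of dedifferentiated fat cells, called DFAT. AC were primary mature adipocytes obtained from fat tissue of mice, of unstated strain, age and fat depot. DFAT cells were the proliferating cells that ceiling culture, in which floating fat cells attach to the upper surface of a filled flask, gave from such adipocytes. The methods give semiconfluence for cells meant for differentiation, and no density for the RNA on the arrays. The methods describe DFAT as a cell line from mice with a GFP transgene, and do not give the genotype behind AC. No treatment is named for either group. The authors speak of biological replicates for the detection calls, but no source says that each chip stands for its own animal or culture. The p-values therefore reflect chip-to-chip spread alone, and how much of it is technical is not known.

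Complement is a cascade of plasma proteins that tags microbes and dying cells and recruits leukocytes. C1q with its proteases C1r and C1s opens the classical pathway, mannose-binding lectins with MASP proteases open the lectin pathway, and factor B with properdin drives the alternative pathway. All of them meet at C3, and C5 to C9 then form a pore in the target membrane. Acute-phase proteins are secreted mostly by liver when interleukin-6, interleukin-1 and glucocorticoids signal inflammation or injury, and C/EBP, STAT and NF-kB factors act on many of their genes. Fat tissue is known as another source of several of them, among them haptoglobin, orosomucoid, serum amyloid A3, lipocalin-2 and apolipoprotein E, while C1q is made chiefly by macrophages.

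Most of the measured genes were lower in DFAT cells. Of the 34 genes, 28 fell, 1 rose and 5 were not called, where each gene was read from its probe set of highest mean and called at an adjusted p under 0.05 from limma. Over all 18193 genes, 23.8% were lower and 22.6% were higher by the same rule. Of the 34, 22 were at least 4-fold lower and past the test, against 6.65% of all genes, and 1 was at least 4-fold higher, against 4.78%. The median difference, DFAT cells minus AC, was -3.48 on the log2 scale for the 34 genes and -0.10 for all genes. The groups of 3 arrays did not overlap for 28 genes in the downward direction, where all genes had 32.5%, and for 2 in the upward direction, where all genes had 27.5%. The rise was that of Masp1. Fewer cells of a type in a preparation and less RNA per cell cannot be told apart in such samples.

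All values are RMA values on the log2 scale, given in the order of replicates 1, 2 and 3. RMA values are never 0, so a background level was taken on each array, the value that 95% of 139 probe sets did not exceed, taken over 97 genes of eye, inner ear, smell, taste and sperm. It lay between 5.64 and 5.96 on the 6 arrays. A gene that did not exceed this level on any of the 3 chips of a group is called at background level there. This was so for 25 of the 34 genes in DFAT cells and for 4 in AC, where all genes had 45.9% in DFAT cells and 40.7% in AC. Of the 28 genes that fell, 22 were at background level in DFAT cells. For these genes the size of the fall is not exact. A bound, with all values under the background level set to it, is given beside it, as a fold ("at least") or as the difference with that floor.

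The array of AC replicate 1 stood apart. Across probe sets it correlated with AC replicates 2 and 3 at 0.971 and 0.969, while those correlated at 0.991, and pairs of DFAT chips at 0.995 to 0.996. The 21 measured macrophage markers averaged 5.69 there, 7.21 and 7.34 on AC replicates 2 and 3, and 4.34 to 4.37 on the DFAT chips, and 16 of them fell. Of these markers Cx3cr1, Coro1a, Fcgr1 and Itgam were at background level in AC. The 18 endothelial markers went the other way, with 9.87 and then 8.10 and 7.97 on the AC arrays and 4.56 to 4.57 on the DFAT arrays, and all 18 fell. The 15 epithelial markers had 7.97, 7.42 and 7.40 on the AC arrays, and 13 of them fell. On the AC chips 12 of 16 measured markers of hepatocytes, 8 of 11 of neutrophils and 9 of 12 of mesothelium never exceeded the background level. The 14 measured adipocyte markers were above background level on every AC array, and all of them fell. Listed genes that differed there by more than 1 on the log2 scale are given without AC replicate 1 as well, and the part of these other cell types in the results was not tested.

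The C1q genes, which encode the 3 chains of the protein that recognizes antibody and cell debris, fell from well above background level in AC to background level in DFAT cells. C1qa read 8.06, 9.59 and 8.89 on the AC chips and 3.74, 4.40 and 3.96 on the DFAT chips. C1qb read 7.20, 9.71 and 9.49 on the AC chips and 3.15, 3.15 and 3.08 on the DFAT chips. C1qc read 6.61, 8.37 and 8.41 on the AC chips and 3.27, 3.59 and 3.38 on the DFAT chips. In each of them AC replicate 1 was the lowest AC array and still lay above all DFAT arrays. The differences were -4.81 ± 0.37 (SE; adjusted p = 2.54e-05 from limma) for C1qa, -5.68 ± 0.59 (SE; adjusted p = 0.00014 from limma) for C1qb and -4.38 ± 0.45 (SE; adjusted p = 0.00013 from limma) for C1qc. As bounds these were at least 8.49-fold, 8.22-fold and 4.11-fold. Without AC replicate 1, where the macrophage markers were low, they were -5.21, -6.48 and -4.98. The gap between AC replicate 1 and the mean of the other AC arrays was -1.19, -2.40 and -1.79 for C1qa, C1qb and C1qc, and its median over the 21 macrophage markers was -1.86.

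The proteases that act after C1q did not all move alike. C1ra, the protease that C1q activates, read 8.68, 9.41 and 9.46 on the AC chips and 7.07, 7.27 and 7.07 on the DFAT chips. It fell by 2.05 on the log2 scale (adjusted p = 0.000169 from limma), a 4.13-fold difference, and stayed above background level on every DFAT array. C2, which supplies the protease of the classical C3 convertase, read 10.11, 10.55 and 10.67 on the AC chips and 5.67, 5.47 and 5.38 on the DFAT chips. It fell by 4.94, or at least 25.7-fold, to background level (adjusted p = 4.99e-07 from limma). Masp1, which encodes a protease of the lectin pathway and by other transcripts MASP-3 and an inhibitor without protease activity, read 5.56, 5.19 and 5.13 on the AC chips and 8.54, 8.71 and 8.68 on the DFAT chips. It went from background level in AC to above it on every DFAT array, and the difference was 3.35 ± 0.16 (SE; adjusted p = 1.72e-06 from limma), at least 7.20-fold. All 5 of its probe sets passed the test as higher, by 0.70 to 3.35, but 2 of them never exceeded the background level. These 2 are its only plain _at probe sets. The others end in _s_at or _x_at, and such probe sets can also match other transcripts. The array does not say which Masp1 transcript, or other matching transcript, gave the signal.

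**Figure D1:**
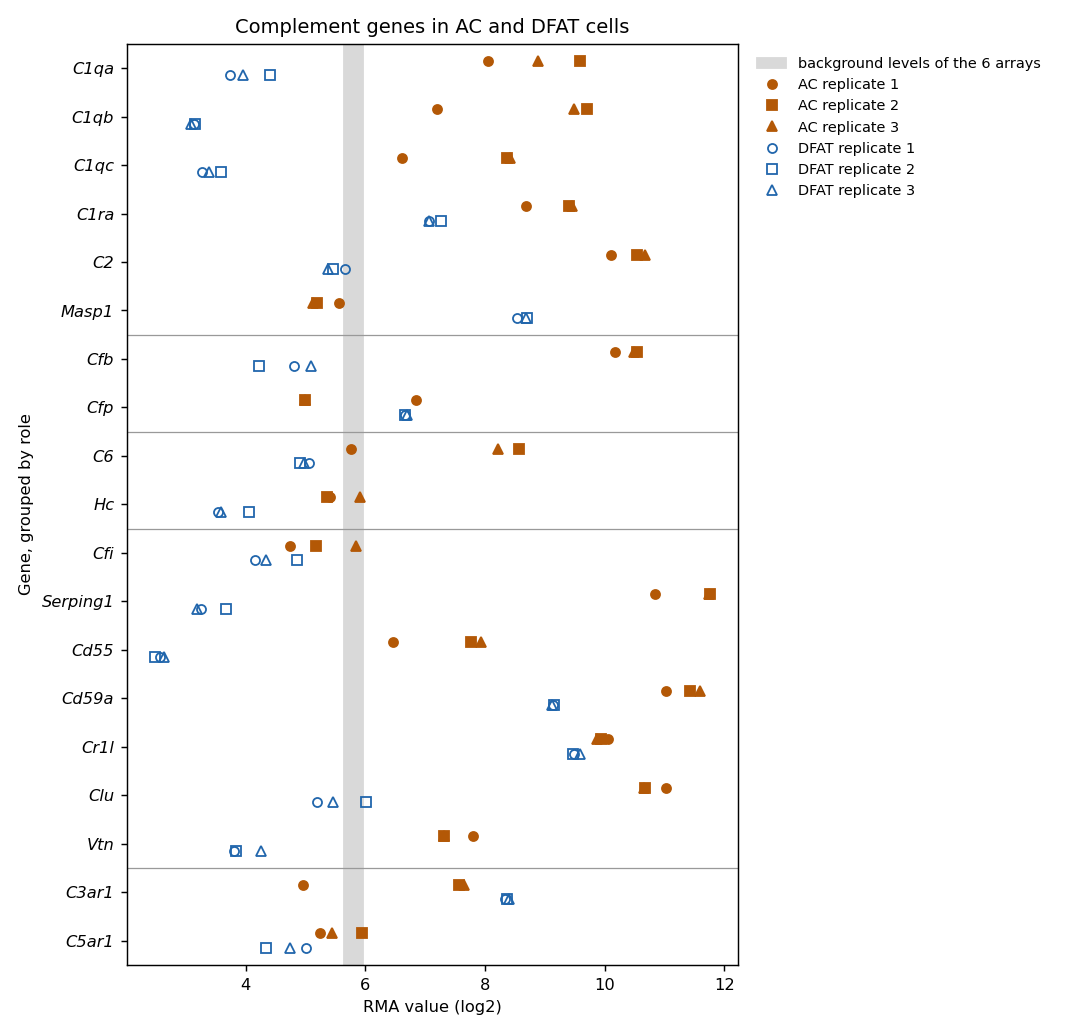
Log2 RMA values (x axis) of the 19 measured complement genes (y axis, grouped by role with lines between roles) on the 3 AC arrays (filled) and 3 DFAT arrays (open). Points are single arrays, and grey shading covers the 6 background levels, from 5.64 to 5.96. C1qa, C1qb, C1qc, C2, Cfb, Serping1, Cd55 and Vtn lie to the right of the band in AC and at or left of it in DFAT cells. Clu does so too except on DFAT replicate 2. Masp1 lies the other way round, and C1ra, Cd59a and Cr1l lie to the right of the band in both groups.

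Of the alternative pathway, factor B fell and properdin gave no clear answer. Cfb, the protease of the alternative convertase, read 10.17, 10.54 and 10.49 on the AC chips and 4.80, 4.22 and 5.10 on the DFAT chips. It fell by 5.69 (adjusted p = 8.84e-07 from limma), or at least 25.0-fold, and its AC arrays lay close together, with AC replicate 1 lower than the mean of the others by 0.34. Cfp, which encodes properdin, the stabilizer of that convertase, read 6.86, 4.99 and 4.99 on the AC chips and 6.66, 6.67 and 6.69 on the DFAT chips on the probe set with the higher mean, a difference of 1.06 that did not pass the test (95% confidence interval -0.01 to 2.13; adjusted p = 0.109 from limma). Without AC replicate 1 that probe set was higher in DFAT cells by 1.68 (adjusted p = 8.65e-06 from limma). The 2 AC values left were equal and at background level, so the AC arrays added no spread to that p-value. The other probe set of Cfp passed the test in the opposite direction, at -1.76 (adjusted p = 0.00167 from limma), so no direction can be given for the gene.

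The terminal genes were low and uneven. C6, a part of the membrane pore, read 5.76, 8.58 and 8.22 on the AC chips and 5.06, 4.91 and 4.98 on the DFAT chips. It fell by 2.54 (adjusted p = 0.0154 from limma), or at least 3.55-fold, and by 3.42 without AC replicate 1, where it was at background level. The C6 call was lost when AC replicate 3 (adjusted p = 0.0625 from limma), DFAT replicate 1 (adjusted p = 0.0522 from limma) or DFAT replicate 2 (adjusted p = 0.0502 from limma) was left out. Hc, which encodes C5, read 5.41, 5.36 and 5.91 on the AC chips and 3.54, 4.06 and 3.59 on the DFAT chips. The test was passed (difference -1.83; adjusted p = 0.000249 from limma), but Hc lay above background level on AC replicate 3 alone. With values under the background level set to it, the difference of Hc was -0.08 (adjusted p = 0.791 from limma), so the call hardly measures a fall above background.

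Among the regulators of complement, a soluble inhibitor changed most and the membrane-bound ones did not move together. Serping1, the C1 inhibitor that blocks C1r, C1s and MASP proteases, read 10.85, 11.77 and 11.74 on the AC chips and 3.25, 3.67 and 3.18 on the DFAT chips. It fell by 8.09 (adjusted p = 3.31e-07 from limma), or at least 51.7-fold. Clu, the chaperone clusterin, which keeps the pore from inserting, read 11.03, 10.67 and 10.66 on the AC chips and 5.19, 6.01 and 5.46 on the DFAT chips. Its fall of 5.24 (adjusted p = 1.13e-06 from limma) was at least 30.9-fold, and the differences of its other 3 probe sets were -5.65, -7.27 and -7.50. Vtn, vitronectin, which does the same and also binds integrins, read 7.80, 7.31 and 7.31 on the AC chips and 3.80, 3.83 and 4.25 on the DFAT chips and fell by 3.51 (adjusted p = 4.47e-06 from limma), or at least 3.28-fold. On Clu and Vtn the array of AC replicate 1 was the highest AC array. Cfi, the protease that cuts C3b, read 4.75, 5.17 and 5.84 on the AC chips and 4.16, 4.85 and 4.35 on the DFAT chips and did not pass the test (difference -0.80; adjusted p = 0.0667 from limma). It was above background level on AC replicate 3 alone. Without AC replicate 1 it passed, at -1.05 (adjusted p = 0.0114 from limma).

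The membrane regulators shield a cell from its own complement. Cd55, the decay-accelerating factor, read 6.47, 7.77 and 7.94 on the AC chips and 2.57, 2.48 and 2.64 on the DFAT chips. It fell by 4.83 (adjusted p = 2e-05 from limma), or at least 3.10-fold, to background level. AC replicate 1 was its lowest AC array, and without it the difference of Cd55 was -5.29. Cd59a, which blocks the last step of the pore, read 11.03, 11.44 and 11.60 on the AC chips and 9.14, 9.15 and 9.12 on the DFAT chips. It fell by 2.22 (adjusted p = 2.47e-05 from limma), a 4.65-fold difference, and remained far above background level in DFAT cells. Cr1l, which encodes Crry, the widely expressed rodent regulator of C3 convertases, read 10.06, 9.94 and 9.87 on the AC chips and 9.49, 9.48 and 9.60 on the DFAT chips. The groups of Cr1l did not overlap and the difference was -0.44 (95% confidence interval -0.73 to -0.14; adjusted p = 0.0276 from limma), a 1.35-fold difference. It was 0.03 after centring on the hybridization controls, so the direction of Cr1l depends on the scaling. Its call was lost when AC replicate 2 or any of the DFAT arrays was left out, with adjusted p-values between 0.0510 and 0.109 from limma. Its other 2 probe sets exceeded the background level on no chip.

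Of the receptors for the split products C3a and C5a, which call leukocytes, C5ar1 passed the test and C3ar1 did not. C3ar1 read 4.97, 7.58 and 7.65 on the AC chips and 8.33, 8.37 and 8.40 on the DFAT chips. The DFAT arrays all lay above the AC arrays, but the wide AC spread left the difference of 1.64 outside the threshold (95% confidence interval 0.15 to 3.12; adjusted p = 0.0804 from limma). Its other 2 probe sets passed the test as higher, by 2.78 (adjusted p = 0.00224 from limma) and 2.92 (adjusted p = 0.00734 from limma). Without AC replicate 1 the C3ar1 difference was 0.76 (adjusted p = 0.000825 from limma). Of the 21 macrophage markers none passed the test as higher and 16 passed it as lower. Among the markers not called, Cd53, named after its values were seen, read 4.89, 8.01 and 8.02 on the AC chips and 7.83, 7.78 and 7.51 on the DFAT chips. Its difference was 0.74 (adjusted p = 0.492 from limma). The others not called were Laptm5, Cx3cr1, Fcgr1 and Itgam, with differences of -0.07, -0.13, -0.23 and -0.46. C5ar1 read 5.24, 5.95 and 5.45 on the AC chips and 5.01, 4.35 and 4.74 on the DFAT chips, with AC replicate 2 the only array above background level on this probe set. Its difference of -0.84 passed the test (adjusted p = 0.0234 from limma) and was -0.14 with the background level as floor (adjusted p = 0.636 from limma). The other C5ar1 probe set read 3.03, 6.25 and 5.82 on the AC chips, above background level on replicates 2 and 3, and was at background level in DFAT cells. It differed by -2.35 (adjusted p = 0.0378 from limma). The call of the probe set used was also lost without AC replicate 2 or 3 or DFAT replicate 2 or 3, with adjusted p-values between 0.0503 and 0.0896 from limma.

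All 10 acute-phase carriers and apolipoproteins passed the test as lower in DFAT cells, where 23.8% of all genes did, and 8 of the 10 were at background level there. Of these, Saa2 and Orm2 differed by only -0.04 and -0.05 with the background level as floor. Hp, haptoglobin, which binds free haemoglobin, read 12.26, 13.06 and 13.12 on the AC chips and 5.84, 5.55 and 5.08 on the DFAT chips. Orm1, orosomucoid, a lipocalin that carries drugs and lipids, read 11.67, 12.43 and 12.25 on the AC chips and 3.85, 2.69 and 2.83 on the DFAT chips. Apoe, the ligand by which lipoprotein remnants are taken up, read 12.94, 12.77 and 13.08 on the AC chips and 4.36, 4.35 and 4.48 on the DFAT chips. For each of these genes the AC and DFAT chips lay far apart. The difference was -7.32 for Hp (adjusted p = 6.21e-07 from limma), -8.99 for Orm1 (adjusted p = 5.18e-07 from limma) and -8.53 for Apoe (adjusted p = 3.05e-08 from limma). As bounds these falls were at least 132-fold, 81.8-fold and 144-fold. For Apoe, AC replicate 1 differed from the mean of the other AC arrays by 0.01.

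Lipocalin-2 and albumin fell to background level as well. Lcn2, which holds back bacterial iron carriers, read 10.96, 10.24 and 10.31 on the AC chips and 3.51, 3.86 and 3.66 on the DFAT chips, with AC replicate 1 the highest. That array was the highest AC array for 11 of the 15 epithelial markers and the lowest for 3. Over all 18193 genes it was the highest for 5567 and the lowest for 8728. Lcn2 fell by 6.82 (adjusted p = 2.58e-07 from limma), or at least 26.8-fold, with a difference of -6.60 without AC replicate 1. Alb, albumin, the main plasma protein of liver, read 9.29, 9.67 and 9.92 on the AC chips and 3.85, 4.01 and 3.66 on the DFAT chips. Its fall was 5.79 (adjusted p = 3.05e-07 from limma), or at least 14.6-fold. Among 16 markers of hepatocytes, 12 exceeded the background level on no AC chip and all 16 on no DFAT chip. Those above it on some AC chip were Cyp2e1, Hpd, Hnf4a and Apoa2. Cyp2e1 read 13.27, 13.18 and 13.18 on the AC chips and fell by 8.74 (adjusted p = 3.05e-08 from limma). The source of the Alb signal was not tested. Hpx, hemopexin, which binds free haem, read 4.97, 6.94 and 7.58 on the AC chips and 4.74, 4.01 and 4.75 on the DFAT chips. It was at background level on AC replicate 1, and its difference of -1.99 (adjusted p = 0.0313 from limma), at least 2.09-fold, became -2.76 without that array. The Hpx call was lost when any of the other arrays was left out, with adjusted p-values between 0.0677 and 0.105 from limma.

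**Figure D2:**
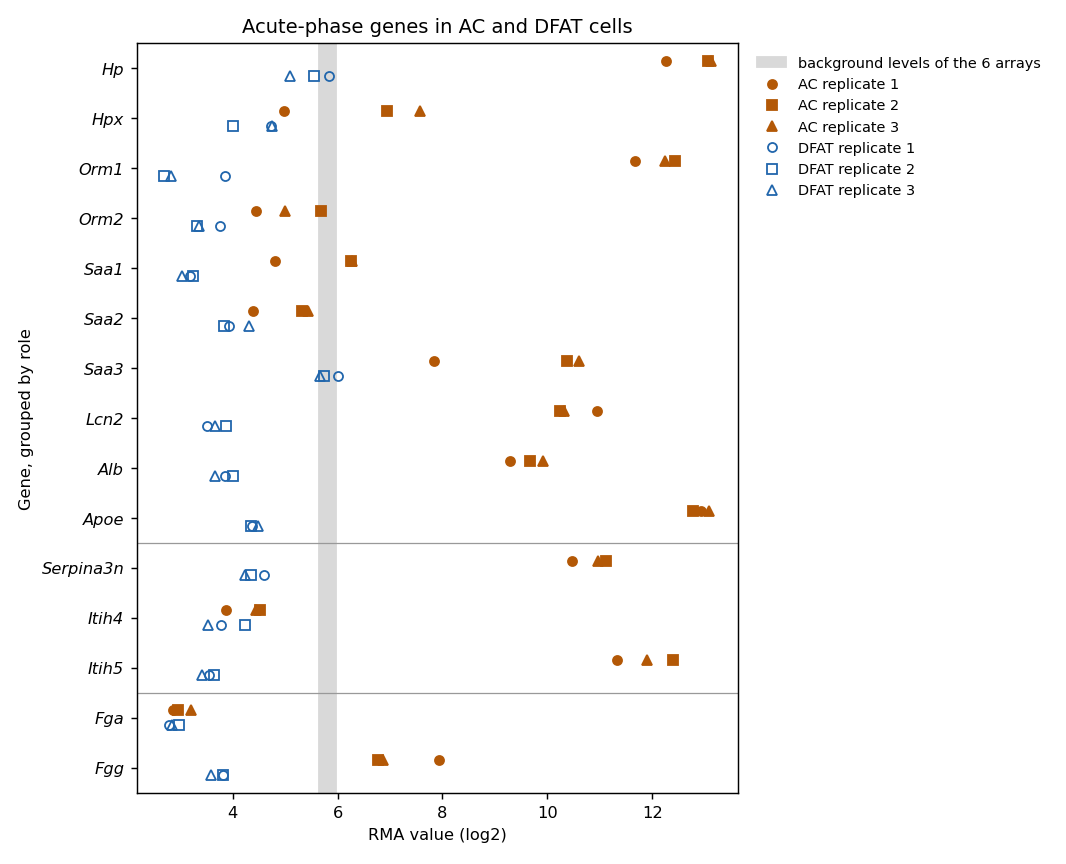
Log2 RMA values (x axis) of the 15 measured acute-phase genes (y axis, grouped by role with lines between roles) on the 3 AC arrays (filled) and 3 DFAT arrays (open). Points are single arrays, and grey shading covers the 6 background levels, from 5.64 to 5.96. Hp, Orm1, Lcn2, Alb, Apoe, Serpina3n and Itih5 lie far to the right of the band in AC and at or left of it in DFAT cells, and on Hpx, Saa1 and Saa3 the array of AC replicate 1 lies well left of the other AC arrays.

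The serum amyloid A genes, whose proteins ride on high-density lipoprotein in inflammation, were led by Saa3, the form made outside the liver. Saa3 read 7.84, 10.37 and 10.61 on the AC chips and 6.0, 5.75 and 5.66 on the DFAT chips. It fell by 3.80 (adjusted p = 0.00217 from limma), or at least 13.8-fold, and by 4.68 without AC replicate 1. Saa1 read 4.81, 6.25 and 6.27 on the AC chips and 3.19, 3.24 and 3.02 on the DFAT chips, a fall of 2.63 (adjusted p = 0.00075 from limma) that was at least 1.32-fold. Without AC replicate 1 the difference of Saa1 was -3.11. Saa2 read 4.39, 5.32 and 5.44 on the AC chips and 3.92, 3.84 and 4.31 on the DFAT chips. It passed the test (difference -1.03; adjusted p = 0.0224 from limma) but exceeded the background level on no chip, so that difference measures no fall. The Saa2 call was lost without AC replicate 2 or 3 or DFAT replicate 1 or 2, with adjusted p-values between 0.0743 and 0.0824 from limma. Orm2, a close relative of Orm1, read 4.44, 5.67 and 4.99 on the AC chips and 3.76, 3.33 and 3.36 on the DFAT chips. It lay above background level on AC replicate 2 alone, and its difference of -1.55 (adjusted p = 0.00402 from limma) was -0.05 with the background level as floor. On all of these genes AC replicate 1 was the lowest AC array, as it was for 18 of the 21 macrophage markers and 8728 of all 18193 genes. Without it the differences of Saa2 and Orm2 were -1.36 and -1.85. Saa1, Saa2 and the orosomucoid genes have closely related copies. Probe sets ending in _s_at or _x_at, among them those used for Saa2, Masp1 and Clu, can also match other transcripts.

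Promoters of acute-phase genes are shown because most of these genes passed the test as lower and C/EBP sites are a known feature of the class. Of the 6 printed, those of Saa2 and Orm2 belong to genes with no measured fall above background level. Of the listed genes, 25 measured ones had a promoter in the RefSeq table of GRCm38.p6, which holds 250 bases before and 50 after a transcription start. The letters TTGCNNAA, a loose form of the C/EBP site read on both strands, were found in promoters of 9 of these 25 genes and in 10.8% of all 32851 promoters. The 9 were Saa1, Saa2, Saa3, Lcn2, Alb, Orm2, Hpx, C1ra and Fga, and the last of these exceeded the background level on no chip. TTCNNNGAA, a STAT site, was found for 4 genes and in 8.30% of all promoters. An NF-kB site, written GGG, any 2 bases and TTTCC, was found for 2 genes and in 1.63%. An interferon response element, written GAAA, any 2 bases and GAAA, was found for 3 genes and in 3.44%. GAGGAAGT, a PU.1 site, was found for C1qc alone and in 3.20%. All were read on both strands. A gene counted if any of its promoters matched, while the percentages are over single promoters, so the counts and percentages are not in like units. A match is a description of the letters and not a bound site. The promoters of 6 genes are printed 5′ to 3′ on the strand of the gene, with the letters that match TTGCNNAA on either strand in capitals. All 6 come from the 9 genes with that match, so they do not show how common it was among the 25. Saa1 and Saa2 were 96.0% identical over 299 aligned bases.
Saa1 (chr7:46742931-46743230, minus strand): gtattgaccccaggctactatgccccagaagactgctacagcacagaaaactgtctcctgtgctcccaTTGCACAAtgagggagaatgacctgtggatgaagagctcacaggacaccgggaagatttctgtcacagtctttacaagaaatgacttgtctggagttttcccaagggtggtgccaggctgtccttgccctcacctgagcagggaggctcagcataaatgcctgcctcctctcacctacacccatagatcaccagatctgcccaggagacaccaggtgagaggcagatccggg
Saa2 (chr7:46751583-46751882, plus strand): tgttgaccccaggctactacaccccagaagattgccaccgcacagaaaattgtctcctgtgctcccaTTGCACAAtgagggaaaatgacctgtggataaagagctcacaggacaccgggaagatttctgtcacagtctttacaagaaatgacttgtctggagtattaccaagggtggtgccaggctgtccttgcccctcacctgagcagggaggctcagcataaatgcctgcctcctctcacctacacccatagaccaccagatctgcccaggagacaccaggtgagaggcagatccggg
Saa3 (chr7:46715627-46715926, minus strand): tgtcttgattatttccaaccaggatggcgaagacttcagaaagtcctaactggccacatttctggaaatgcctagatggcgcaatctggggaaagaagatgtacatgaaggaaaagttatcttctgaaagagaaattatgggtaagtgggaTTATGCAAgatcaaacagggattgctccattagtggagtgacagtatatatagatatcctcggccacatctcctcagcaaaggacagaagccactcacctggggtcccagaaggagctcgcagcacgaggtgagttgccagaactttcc
Lcn2 (chr2:32387690-32387989, minus strand): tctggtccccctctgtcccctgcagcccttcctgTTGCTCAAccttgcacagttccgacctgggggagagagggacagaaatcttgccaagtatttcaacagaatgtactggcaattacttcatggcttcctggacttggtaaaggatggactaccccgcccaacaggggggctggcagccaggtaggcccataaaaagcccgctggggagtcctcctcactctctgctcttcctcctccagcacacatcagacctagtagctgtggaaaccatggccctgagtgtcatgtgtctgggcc
Orm2 (chr4:63362199-63362498, plus strand): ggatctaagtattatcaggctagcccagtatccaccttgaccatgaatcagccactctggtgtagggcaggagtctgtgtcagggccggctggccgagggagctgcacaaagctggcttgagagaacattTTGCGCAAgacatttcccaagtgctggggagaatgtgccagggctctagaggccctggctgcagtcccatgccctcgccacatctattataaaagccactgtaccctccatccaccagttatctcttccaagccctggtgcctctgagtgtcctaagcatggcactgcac
Alb (chr5:90460620-90460919, plus strand): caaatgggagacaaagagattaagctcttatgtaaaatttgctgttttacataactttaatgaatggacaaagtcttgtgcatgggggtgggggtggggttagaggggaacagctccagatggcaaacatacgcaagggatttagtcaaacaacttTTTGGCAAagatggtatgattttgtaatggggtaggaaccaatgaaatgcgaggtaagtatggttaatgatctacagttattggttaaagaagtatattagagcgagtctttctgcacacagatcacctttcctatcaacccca

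The acute-phase protease inhibitors split by gene. Serpina3n, a serpin related to human antichymotrypsin, read 10.47, 11.11 and 10.97 on the AC chips and 4.59, 4.35 and 4.23 on the DFAT chips and fell by 6.46 (adjusted p = 2.34e-07 from limma), or at least 34.1-fold. Itih5, an inter-alpha-trypsin inhibitor heavy chain that binds hyaluronan and is known from fat tissue, read 11.33, 12.40 and 11.90 on the AC chips and 3.54, 3.65 and 3.41 on the DFAT chips. It fell by 8.34 (adjusted p = 2.36e-07 from limma), or at least 69.3-fold, and the differences of its other 2 probe sets were -6.99 and -7.22. Itih4, the chain of that family secreted by liver, never exceeded the background level, with means of 4.28 ± 0.36 and 3.85 ± 0.35 (SD, n = 3 each). Its difference of -0.43 did not pass the test (95% confidence interval -0.99 to 0.12; adjusted p = 0.196 from limma).

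The fibrinogen chains, which liver secretes as a single clotting protein, were unlike each other. Fgg, the gamma chain, read 7.92, 6.77 and 6.87 on the AC chips and 3.81, 3.81 and 3.59 on the DFAT chips and fell by 3.45 (adjusted p = 4.84e-05 from limma), or at least 2.68-fold. AC replicate 1 was its highest array, and without it the fall was 3.08. Fga, the alpha chain and the neighbour of Fgg in the genome, was at background level on all arrays, between 2.78 and 3.21, with a difference of -0.14 (95% confidence interval -0.48 to 0.20; adjusted p = 0.496 from limma). The beta chain Fgb, not in the list and named after its values were seen, read 7.11, 5.57 and 5.61 on the AC chips and 3.72, 4.21 and 4.27 on the DFAT chips. Its difference of -2.03 passed the test (adjusted p = 0.00464 from limma), with AC replicate 1 the only array above background level.

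**Figure D3:**
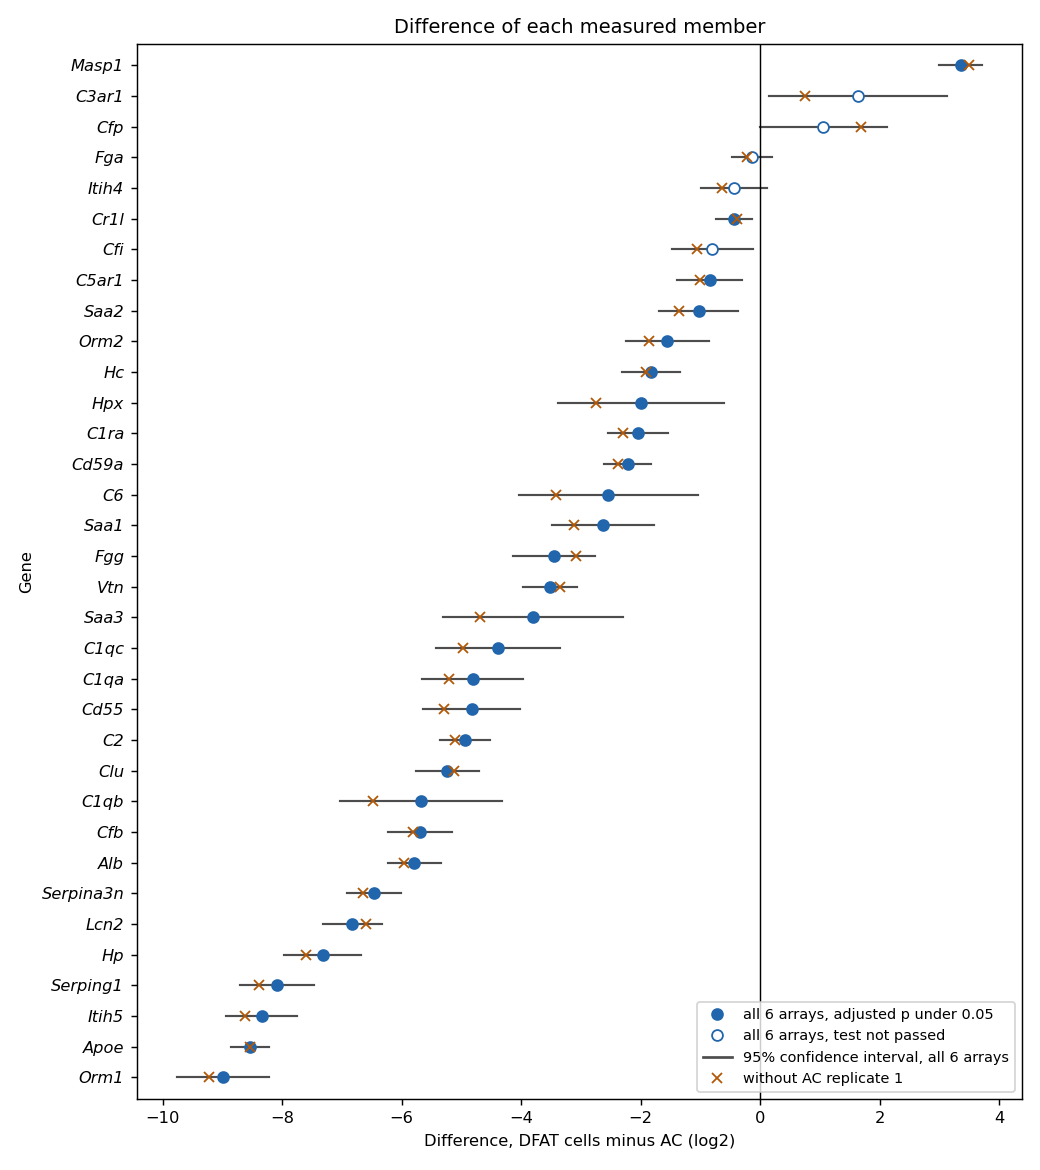
Difference of DFAT cells minus AC (x axis, log2) for each of the 34 measured genes (y axis, in order of the difference), with the 95% confidence interval from limma over all 6 arrays. Filled circles passed the test at an adjusted p under 0.05, open circles did not, and crosses are the values without AC replicate 1. The filled circles run from Orm1 at -8.99 to Masp1 at 3.35, the 5 open circles are Cfi, Itih4, Fga, Cfp and C3ar1, and the crosses keep the sign of the circles.

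The AC arrays varied more than the DFAT arrays. The SD between the 3 arrays was larger in AC for 31 of the 34 genes, with a median of 0.46 in AC and 0.17 in DFAT cells, where all genes had 0.24 and 0.11. AC replicate 1 was the lowest AC array for 25 of the 34 genes and the highest for 7, and over all 18193 genes it was the lowest for 8728 and the highest for 5567. It differed from the mean of the other AC arrays by more than 1 on the log2 scale for 11 genes. The 9 of these that were lower there were C1qa, C1qb, C1qc, C6, Cd55, C3ar1, Hpx, Saa1 and Saa3, and the 2 that were higher were Fgg and Cfp. Without that array 30 of the 34 genes were lower and 3 were higher, where all genes had 29.4% and 25%. The genes added were Cfi and Itih4 as lower and Cfp and C3ar1 as higher.

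**Figure D4:**
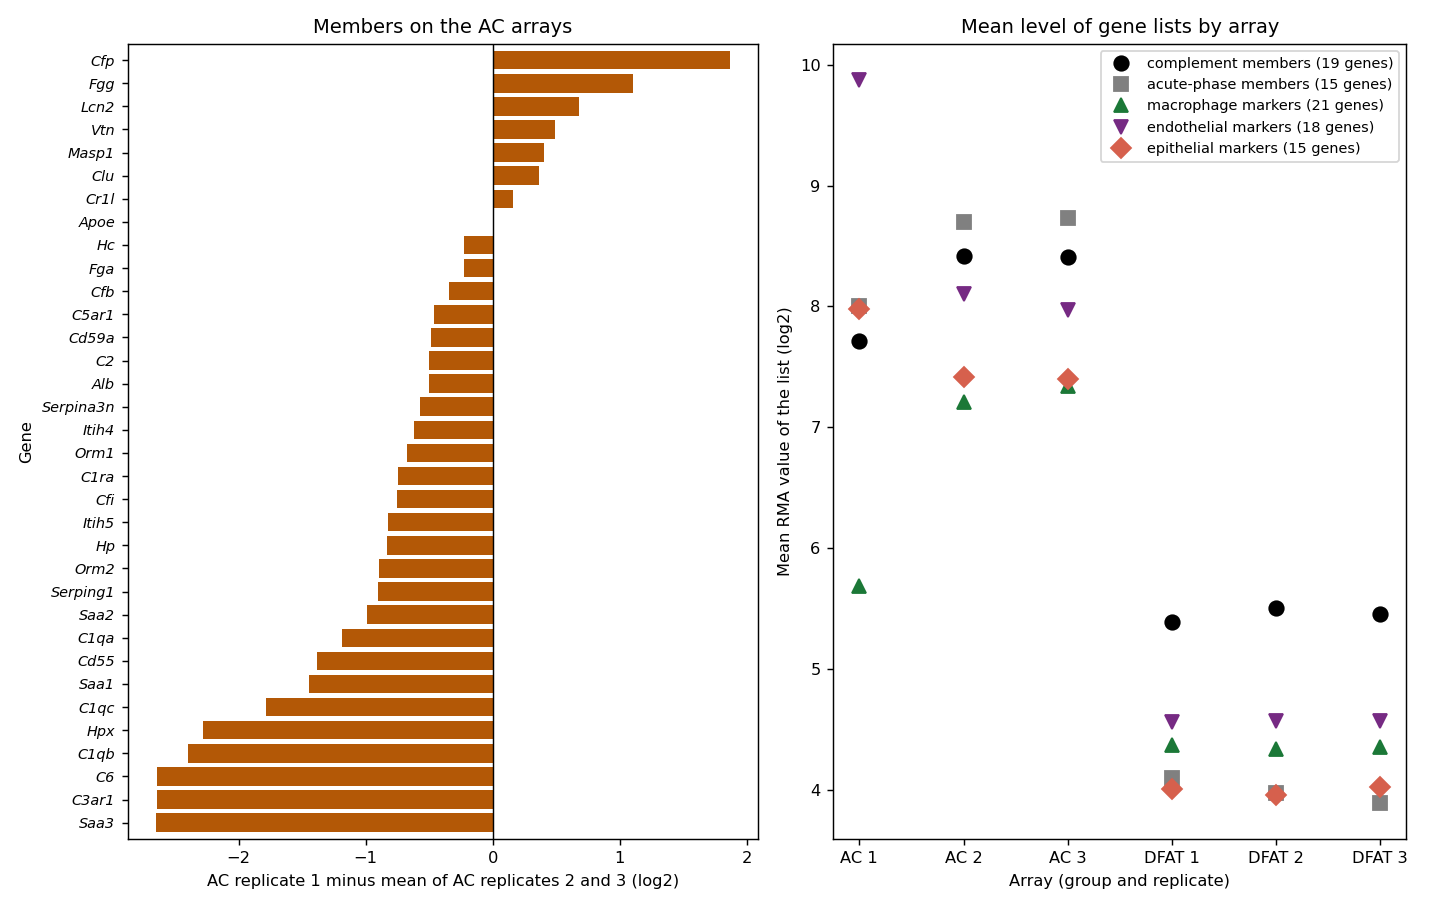
Left, the log2 value on AC replicate 1 minus the mean of AC replicates 2 and 3 (x axis) for each of the 34 measured genes (y axis), from Saa3 at -2.65 to Cfp at 1.87. Right, the mean log2 RMA value (y axis) of 5 gene lists on each array (x axis), where each point is the mean of a list on an array, and where the macrophage markers are low and the endothelial markers high on AC replicate 1.

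Probe sets of the same gene mostly moved together. Of the 34 genes, 13 had several probe sets, and for 10 of these the call of the probe set used was shared by the rest. The exceptions were Cfp and C3ar1, described above, and Cr1l. Of all 58 probe sets, 44 were lower, 7 were higher and 7 did not pass the test. The 7 higher ones belonged to Masp1 with 5 and C3ar1 with 2. Over all 45037 probe sets 18.1% were lower and 20.3% were higher.

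**Figure D5:**
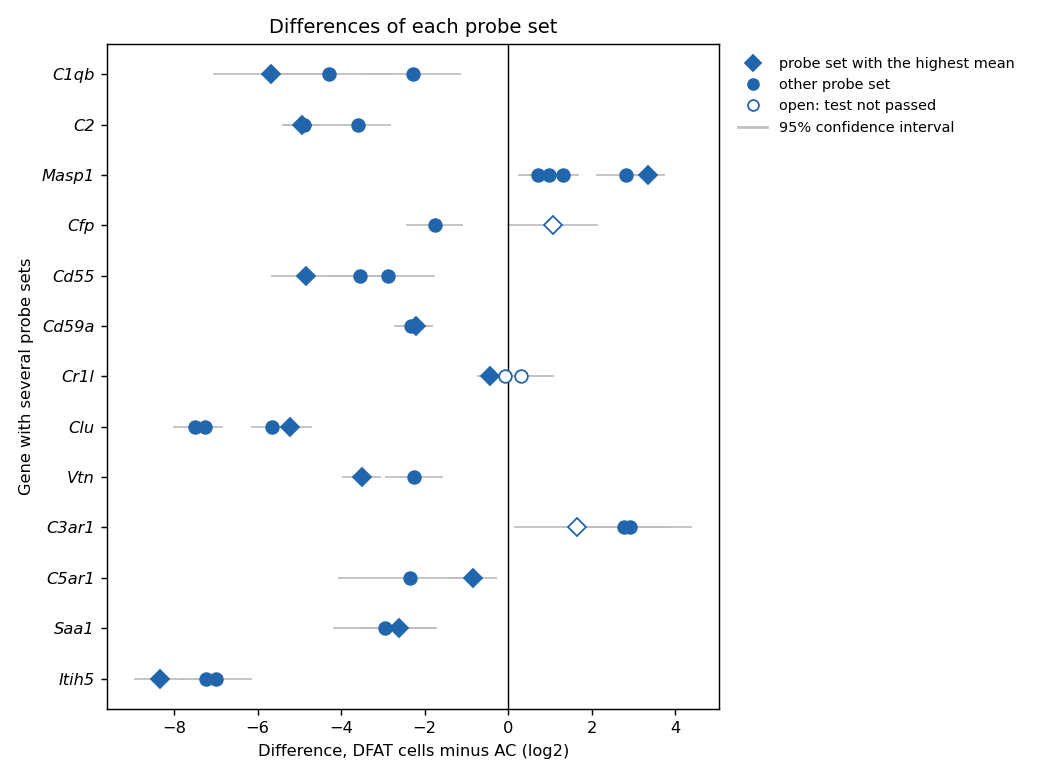
Difference of DFAT cells minus AC (x axis, log2) for every probe set of the 13 genes with several (y axis), with 95% confidence intervals from limma. Diamonds mark the probe set with the highest mean, filled symbols passed the test at an adjusted p under 0.05 and open ones did not. All probe sets of Masp1 and C3ar1 lie right of 0, those of Cfp lie on both sides, and those of C1qb, C2, Cd55, Cd59a, Clu, Vtn, C5ar1, Saa1 and Itih5 lie left of 0.

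The rest of these systems was taken from 3 lists of other genes. The test called 7 of 27 other complement genes lower and 2 higher and left 18 uncalled, where 23.8% of all genes were lower and 22.6% higher. Of the 27, 18 exceeded the background level on no chip. Cd93, a lectin-like receptor of endothelium and myeloid cells, fell by 5.96 (adjusted p = 7.97e-06 from limma), and like the endothelial markers it was highest on AC replicate 1, at 11.42 against 10.10 and 9.88, with a difference of -5.48 without that array. C1s1, the partner protease of C1r, fell by 3.11 (adjusted p = 6.28e-06 from limma) and, like C1ra, stayed above background level, at 7.53 ± 0.30 (SD, n = 3) in DFAT cells. Colec12, a collectin of the scavenger receptor type, rose by 2.42 (adjusted p = 0.00099 from limma), from 4.93, 6.23 and 6.32 in AC to 8.52, 8.05 and 8.17 in DFAT cells. Among the measured genes named here, Colec12 and Masp1 were higher in DFAT cells while C1qa, C1qb, C1qc, C1ra, C1s1 and C2 were lower. Fcna, of the same list as Colec12 and named after its values were seen, fell by 1.75 (adjusted p = 0.000371 from limma). A contrast between pathways was not tested.

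The test called 12 of 27 other acute-phase genes lower and 1 higher and left 14 uncalled, beside the same 23.8% and 22.6% of all genes. Of the 27, 13 exceeded the background level on no chip. Rbp4, the plasma carrier of retinol, fell by 9.22 (adjusted p = 4.15e-08 from limma), Lrg1, a leucine-rich plasma glycoprotein, by 7.32 (adjusted p = 1.96e-06 from limma) and Cp, the copper carrier ceruloplasmin, by 6.32 (adjusted p = 3.66e-07 from limma). All of them were at background level in DFAT cells. The 1 higher was Itih2, of the same family as Itih4 and Itih5 and named after its values were seen. It rose by 2.95 (adjusted p = 2.14e-06 from limma), from background level in AC to above it on every DFAT array. The median difference was -0.49 for this list and -0.38 for the other complement genes, against -3.48 for the 34 genes described here. Of those 34, 3 exceeded the background level on no chip, against 13 of 27 in this list and 18 of 27 other complement genes. The lists were made with earlier results of these data known, so this contrast depends on which genes each list holds.

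Among 24 measured genes of the signalling that drives the acute phase, the test called 14 lower and 2 higher and left 8 uncalled, beside 23.8% lower and 22.6% higher among all genes, with a median difference of -1.04. Il6, interleukin-6 itself, read 11.31, 12.13 and 12.39 on the AC chips and 5.41, 5.18 and 4.81 on the DFAT chips, a fall of 6.81 (adjusted p = 1.05e-06 from limma) to background level. Socs3, the feedback inhibitor that this cytokine induces, fell by 3.65 (adjusted p = 1.25e-05 from limma) from 12.17 ± 0.50 to 8.52 ± 0.15 (SD, n = 3 each). Nfkbia, which encodes the NF-kB inhibitor, fell by 3.67 (adjusted p = 4.93e-07 from limma) from 13.57 ± 0.09 to 9.90 ± 0.13 (SD, n = 3 each). Socs3 and Nfkbia remained above background level in DFAT cells.

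The direction of most of these genes did not depend on how the arrays were scaled. Over all probe sets the median difference was -0.06 with the deposited values, 0.40 after centring on 18 hybridization control probe sets and -0.46 after centring on 12 reference genes. In these settings 24 and 31 of the 34 genes were lower, against 28 as deposited. Over 19 alternatives, 22 of the 34 genes kept their call and direction in every alternative that measured them. These were Masp1 and, among those that fell, the C1q genes, C1ra, C2, Cfb, Serping1, Cd55, Cd59a, Clu, Vtn, Hp, Orm1, Saa1, Saa3, Lcn2, Alb, Apoe, Serpina3n, Itih5 and Fgg.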

How the data were processed

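Expression values of 6 Affymetrix mouse expression arrays (3 AC, 3 DFAT) were used. The authors made the deposited log2 values with RMA in the Bioconductor package affy, which corrects the background, brings arrays to a common distribution and summarizes probes. The version, and which arrays were normalized together, are not given in the sources used here. Scanner values were not used here, so detection calls were not repeated. The number of arrays limits the precision.

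Of 45101 probe sets, 64 controls were left out. The platform annotation gave 1 symbol for 34945 probe sets, several for 932 and none for 9160. Coordinates are printed only for promoters, from the RefSeq table of GRCm38.p6. Groups were compared by linear models in limma 3.58.1 under R 4.3.3 (functions lmFit and eBayes, as a two-sided test with p-values adjusted after Benjamini and Hochberg over all 45037 probe sets, threshold 0.05). Every listed gene with a probe set was named. From each other list up to 3 genes with the largest differences were named, among those past the test, above background level on some array and without overlap of groups. Fgb, Fcna, Itih2 and the single markers of cell types were named besides, after their values were seen. In simulated data with 45037 probe sets, 200 of them changed, the step recovered 36% of changes of 1 and 76% of changes of 2 on the log2 scale, with 3 false calls. The simulation gave both groups the same spread. In the real data 18.1% of probe sets were called lower and 20.3% higher, and the AC arrays varied more. Its figures therefore do not give the recovery or false calls of the reported fit. Tables and figures used Python 3.11.15. The members, lists, motifs and tests were chosen with earlier results of these data known. Arrays with the same replicate number did not deviate together (correlations -0.02, -0.03 and 0.01), so the number was not used as a block in the fit reported.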

Additional observations from a re-analysis of the deposited data

How the results depend on the processing

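Against 28 genes lower and 1 higher, the alternatives gave 22 to 31 lower and 1 to 3 higher. The count of genes higher was 3 with array weights and after centring on the hybridization controls, and 2 with the background level as floor, with the mean over the probe sets of a gene and with the replicate number as a block. The block fit gave 28 genes lower. With it C3ar1 and Cfi passed the test and Cr1l did not, and the labels do not say that the numbers mark pairs. Leaving out each array gave 1 to 3 higher and 23 to 30 lower, the highest of both without AC replicate 1. The methods name a t-test, but not for the arrays. Here that test with Benjamini-Hochberg adjustment gave 23 lower and 1 higher. The methods' rule of a 4-fold difference, used there for other comparisons, gave 22 and 1. Plain _at probe sets, which left out genes without any, gave 22 and 1. The 1 higher was then Masp1, on a probe set at background level on every array. Differences turned sign for Cr1l (0.026), Itih4 (0.028) and Fga (0.32) with centring on the hybridization controls and for Cfp (-0.35) with the mean over its probe sets. With the background level taken at percentile 90 in place of 95, 2 genes were at it in AC and 24 in DFAT cells, and at percentile 99 these were 8 and 28, against 4 and 25. Of the values of single genes under an alternative, 572 kept call and direction, 39 lost the call, 16 gained it and 4 turned sign; the cause was not tested. Most lost calls were those of C5ar1, Hpx, Saa2, Cr1l and C6. Signal near background level limits what can be said of Saa2, Orm2, Hc and Cfi.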
